A study of Rattus norvegicus with 6 samples.

Results

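The interferon response genes described here are 41 rat genes whose transcription is known to rise when cells meet interferons. They were chosen by name from general knowledge of the response and sorted into 17 genes that are mainly targets of interferon gamma and 24 that are mainly targets of type I interferons. Earlier results of these arrays were known when the genes were chosen and sorted. Array probes were assigned to the genes through the RefSeq accession printed for each probe. Of the 41 genes, 37 had a probe and all 37 were measured, 16 gamma-type and 21 type I, among 28995 features tested, of which 11405 carried a gene symbol. Nlrc5, an activator of MHC class I genes, and the type I targets Herc6, a ligase for ISG15, Zbp1, a sensor of unusual nucleic acids, and Xaf1, a cell death factor, were matched to no probe and are not analysed here.

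The tissue was whole liver of male Sprague-Dawley (Crl:CD(SD)) rats, bought when 5 weeks old and kept on a basal diet. The 3 control animals received corn oil, and the other 3 received bromodichloromethane, a trihalomethane formed when drinking water is chlorinated, at 200 mg/kg/day. The labels give the length of the study as 28 days in one place and as 9 weeks of administration in another, so it is not settled here, and they do not give the route or whether the bromodichloromethane was dissolved in corn oil. Each animal gave 1 Cy3-labelled array, and the comparison asks which liver transcripts differ between the dosed and the control animals.

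Interferons act through receptors that switch on JAK kinases and STAT proteins. Interferon gamma, made mainly by T cells and natural killer cells, acts mainly at promoters that hold the gamma-activated sequence (GAS), whereas type I interferons, which most cells can make after sensing viral nucleic acid, act mainly through a complex that includes STAT2 and IRF9 and binds the interferon-stimulated response element (ISRE). The target genes overlap widely, since IRF1, itself induced through a GAS, also binds ISRE-type sequences, and in liver both hepatocytes and resident immune cells respond.

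The promoters of the members carry these elements in different combinations, and 4 are shown because their genes passed the test described below and hold the elements singly, side by side or overlapping. They are the 250 bases before the annotated start of each gene in RefSeq's annotation of GRCr8, on the gene's own strand and written 5′ to 3′. Capitals mark each match to the ISRE letters, GAAA and again GAAA after any 2 bases, or to the GAS letters TTCNNNGAA, where N is any base, on either strand.
Cxcl10: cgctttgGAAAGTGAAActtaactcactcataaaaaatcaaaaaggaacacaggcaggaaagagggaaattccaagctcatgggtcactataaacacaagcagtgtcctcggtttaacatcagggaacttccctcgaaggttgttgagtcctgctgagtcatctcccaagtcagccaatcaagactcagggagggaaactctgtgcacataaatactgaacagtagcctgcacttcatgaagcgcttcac
Ifi47: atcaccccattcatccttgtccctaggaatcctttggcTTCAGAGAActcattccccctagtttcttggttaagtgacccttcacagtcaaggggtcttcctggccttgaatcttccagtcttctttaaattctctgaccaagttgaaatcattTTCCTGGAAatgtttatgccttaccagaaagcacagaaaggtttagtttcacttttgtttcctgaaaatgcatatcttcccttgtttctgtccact
Irgm: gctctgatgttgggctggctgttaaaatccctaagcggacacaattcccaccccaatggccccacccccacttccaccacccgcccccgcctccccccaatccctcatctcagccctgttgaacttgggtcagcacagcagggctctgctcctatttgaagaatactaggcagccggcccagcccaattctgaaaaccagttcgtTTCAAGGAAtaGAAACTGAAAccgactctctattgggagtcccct
Bst2: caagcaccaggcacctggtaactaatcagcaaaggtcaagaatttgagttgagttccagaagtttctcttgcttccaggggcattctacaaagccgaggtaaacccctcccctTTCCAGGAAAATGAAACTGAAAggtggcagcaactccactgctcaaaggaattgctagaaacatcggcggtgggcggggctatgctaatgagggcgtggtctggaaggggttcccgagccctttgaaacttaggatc
The Cxcl10 window (chr14:15988816-15989065, plus strand) held 1 ISRE match, from 243 to 234 bases before the start. The Ifi47 window (chr10:33798494-33798743, plus strand) held 2 GAS matches and no ISRE match, and the Irgm window (chr10:33742579-33742828, minus strand) held a GAS match followed by an ISRE match close to the start. In the Bst2 window (chr16:18254968-18255217, minus strand) a GAS match ran into 2 overlapping ISRE matches in a single block of capitals.

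RefSeq's table held a window for 33 of the 41 genes, 16 gamma-type and 17 type I. ISRE letters were present in 19 of the 33 (57.6%), against 3.41% of all 33469 promoter windows of the same length. GAS letters were present in 11 of the 33 (33.3%), against 7.67% of all windows. The ISRE share was similar in the gamma-type windows, 9 of 16, and the type I windows, 10 of 17, and the GAS letters were found in 7 of 16 gamma-type and 4 of 17 type I windows. All 7 windows of genes that passed the test below held ISRE or GAS letters, as did 17 of the 24 windows of measured genes that did not pass. The windows of Stat2 and Oasl held neither. A match to these letters describes the sequence and does not show that a factor binds it.

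**Figure D1:**
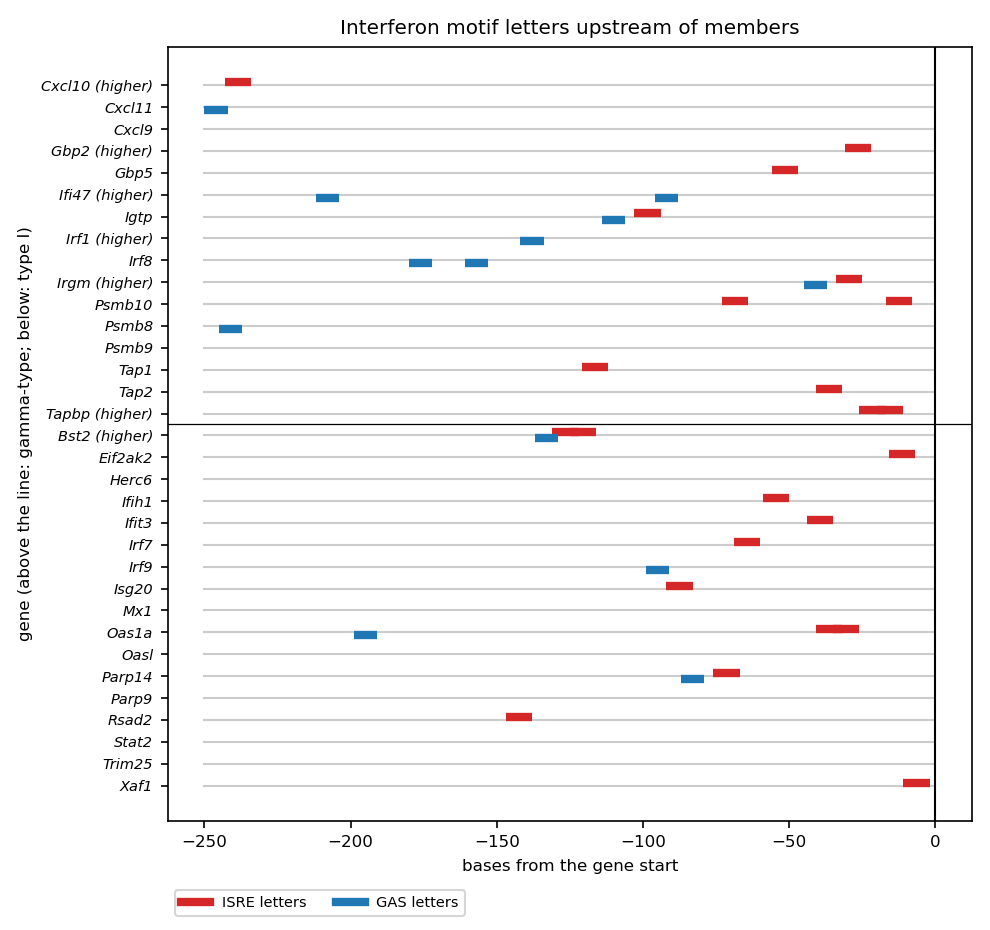
Positions of ISRE and GAS letter matches in the 250 bases before the gene start (x axis, bases from the start) for the member genes with a RefSeq promoter window (y axis), with both motifs marked separately. Matches are spread over the window, and ISRE letters occur in 9 of 16 gamma-type and 10 of 17 type I windows.

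The 6 arrays were of similar quality, with 61.3% to 66.9% of probes well above background, no saturated probe, and correlations of log2 signal of 0.989 to 0.994 within the groups and 0.981 to 0.985 between them. They lay on 2 slides that were scanned separately. Slide 1 held the 3 corn oil arrays and bromodichloromethane animal 1, and slide 2 held bromodichloromethane animals 2 and 3, so slide 1 alone compares 1 dosed animal with 3 controls. All levels below are log2 signal relative to the array's 75th percentile, so that 0 is the signal of that percentile and 1 unit is a doubling. The level of one gene's probe cannot be set against another's. All 37 measured members were well above background on all 6 arrays. In whole liver, more or fewer cells of a type and more or less RNA per cell cannot be told apart, and this holds for every difference below.

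In bromodichloromethane livers 6 of 16 gamma-type targets rose, among them Cxcl10, Ifi47 and Irf1, against 1 of 21 type I targets, and no member fell. The test thus passed 7 of the 37 members (adjusted p under 0.05), all as higher, where 9.36% of all features passed, 5.96% as higher and 3.41% as lower. The unadjusted p was under 0.05 for 11 of the 37 as higher and for 1 as lower, beside 15.4% and 12.2% of all features. Of the 7, 6 were among the 16 gamma-type targets (Cxcl10, Ifi47, Irf1, Irgm, Gbp2 and Tapbp) and 1 among the 21 type I targets (Bst2). The median log2 difference was 0.47 over the gamma-type targets and -0.010 over the type I targets, beside 0.0014 over all features. In 14 of 16 gamma-type targets the difference was above 0, and in 12 of 21 type I targets it was below 0. The 3 dosed animals lay above all 3 controls in 12 members, 11 of them gamma-type, and below all of them in 1 member, Stat2, where 34.4% of all features showed such separation, 18.4% as higher and 16.0% as lower. The members and their assignment to the gamma or type I group were chosen with earlier results of these arrays known, so these counts describe the list, and the difference between the gamma-type and type I targets was not tested.

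**Figure D2:**
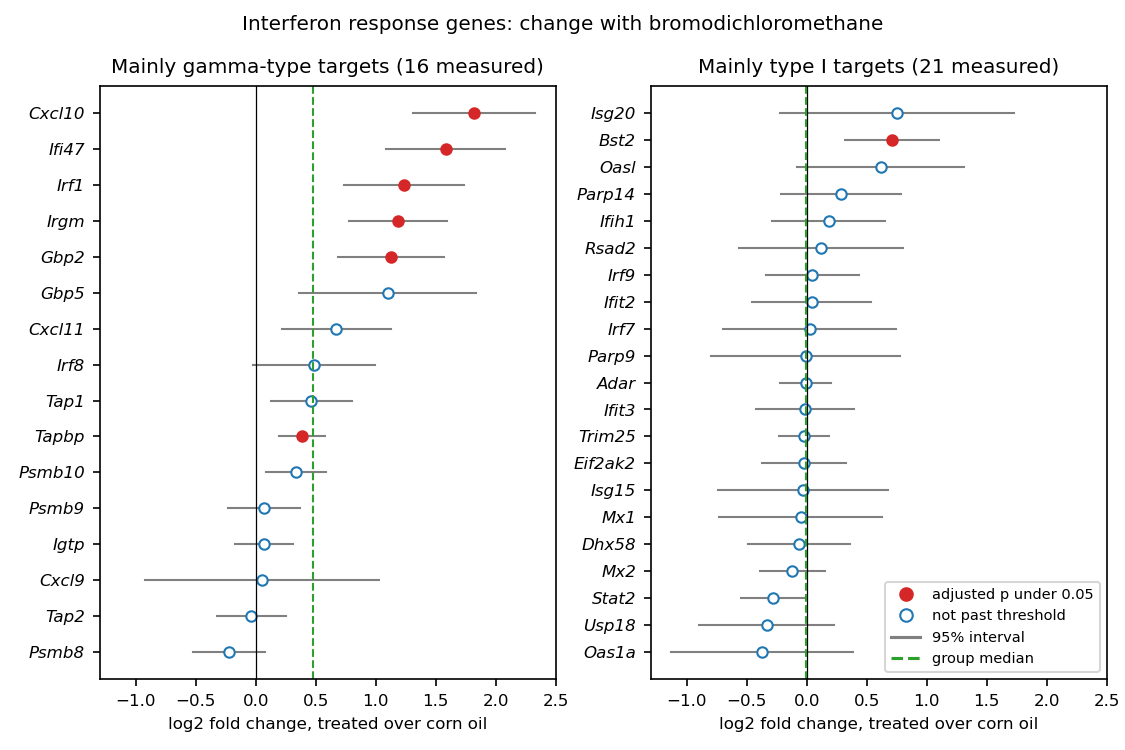
Log2 difference between bromodichloromethane and corn oil livers (x axis) for the 37 measured interferon response genes (y axis), with 95% intervals from the limma fit on 3 animals a group and filled points for adjusted p under 0.05. The gamma-type targets reach from -0.22 (Psmb8) to 1.82 (Cxcl10), and the type I targets from -0.37 (Oas1a) to 0.75 (Isg20).

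The 3 chemokine members, Cxcl9, Cxcl10 and Cxcl11, attract activated T cells through the receptor CXCR3. Cxcl10 showed the largest difference of any member. Its level was 0.19, 0.16 and -0.0062 in the corn oil animals and 2.32, 1.98 and 1.50 in the bromodichloromethane animals. The groups were far apart, with dosed animal 1 the highest. The fitted rise was 3.53-fold (log2 difference 1.82 ± 0.21 SE, n = 3 and 3, adjusted p = 0.011), and it was 2.21 on the log2 scale on slide 1 alone. Cxcl11 stood at -0.034, 0.60 and 0.59 in corn oil and at 1.00, 1.04 and 1.13 in bromodichloromethane. All dosed animals lay above the controls, although corn oil animal 1 was well below the other two, and the difference of 0.67 ± 0.19 (SE) did not pass (adjusted p = 0.077). Cxcl9 ranged from -0.24 to 1.01 in corn oil and from -0.039 to 1.09 in bromodichloromethane. The groups overlapped fully, and with a difference of 0.055 ± 0.40 (SE) its 95% interval of -0.92 to 1.03 left room for a change of about 2-fold either way.

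Among the transcription regulators, Irf1, the factor that carries gamma signalling to secondary targets, passed the test. Its level was 2.83, 3.25 and 2.81 in corn oil and 4.38, 4.40 and 3.81 in bromodichloromethane. The groups did not overlap, and dosed animal 3 was the lowest of its group. The rise was 2.36-fold (log2 difference 1.24 ± 0.21 SE, adjusted p = 0.023), and a second Irf1 probe gave 1.05. Irf8, a myeloid and B cell factor that interferon gamma induces, lay between -3.81 and -3.57 in corn oil and at -2.73, -3.42 and -3.45 in bromodichloromethane. Its groups did not overlap, with most of the difference of 0.48 ± 0.21 (SE) carried by dosed animal 1, and it did not pass (adjusted p = 0.20).

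None of the type I regulators passed. Irf7, which amplifies type I interferon production, was at 2.58, 2.67 and 2.13 in corn oil and at 1.89, 2.97 and 2.59 in bromodichloromethane. The dosed animals spanned the control range on both sides, and the difference was 0.024, with a 95% interval of -0.69 to 0.74. Stat2, a subunit of the ISRE-binding complex, was at 4.23, 4.34 and 4.28 in corn oil and at 4.10, 4.09 and 3.80 in bromodichloromethane. It was the member in which every dosed animal lay below every control, with a difference of -0.28 ± 0.11 (SE), an unadjusted p of 0.040 and an adjusted p of 0.16, and its second probe also separated the groups at -0.35. Under scaling to spiked-in transcripts, which raised all features together, the Stat2 difference was 0.20. For Irf9, the DNA-binding subunit of that complex, the brighter probe overlapped between groups and gave 0.045, while the dimmer probe separated them and gave 0.70 (adjusted p over all probes 0.036). Irf9 is therefore not settled by this array, and which transcripts each probe reads was not tested.

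The inducible GTPases held the most calls. The immunity-related GTPases Ifi47, Irgm and Igtp and the guanylate-binding proteins Gbp2 and Gbp5 act on membranes around intracellular microbes, and Mx1 and Mx2 are dynamin-like antiviral proteins of the type I arm. Ifi47 was at -0.59, -0.33 and -0.82 in corn oil and at 0.78, 0.85 and 1.39 in bromodichloromethane. Every dosed animal was more than 1 unit above every control, with animal 3 the highest, and the rise was 3.00-fold (1.59 ± 0.20 SE, adjusted p = 0.014). Irgm was at 0.41, 0.73 and 0.16 in corn oil and at 1.45, 1.63 and 1.78 in bromodichloromethane. The groups were again apart, and the rise was 2.28-fold (1.19 ± 0.17 SE, adjusted p = 0.017). Gbp2 was at 1.90, 1.94 and 1.62 in corn oil and at 3.11, 3.15 and 2.59 in bromodichloromethane. Here animal 3 was the lowest of the dosed group while still above the controls, and the rise was 2.19-fold (1.13 ± 0.18 SE, adjusted p = 0.021).

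Gbp5 had nearly the same fitted difference as Gbp2 with a wider spread. It was at -0.31, -0.28 and -0.94 in corn oil and at 1.10, 0.61 and 0.069 in bromodichloromethane. The groups did not overlap, and the difference of 1.10 ± 0.30 (SE) had an adjusted p of 0.076, while a second, dimmer Gbp5 probe, which 1 corn oil array did not show well above background and which was kept only through the dosed group, read 1.21. Igtp differed by 0.069 in its brighter probe, with overlapping groups, and by 0.54 in its second probe, where the groups did not overlap (adjusted p over all probes 0.081). Mx1 was at 2.34, 2.44 and 2.09 in corn oil and at 1.61, 2.63 and 2.49 in bromodichloromethane. Dosed animal 1 was below every control and the other two were above every control, so the mean difference of -0.050 ± 0.28 (SE) joins opposite deviations. Mx2 differed by -0.12, with overlapping groups.

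**Figure D3:**
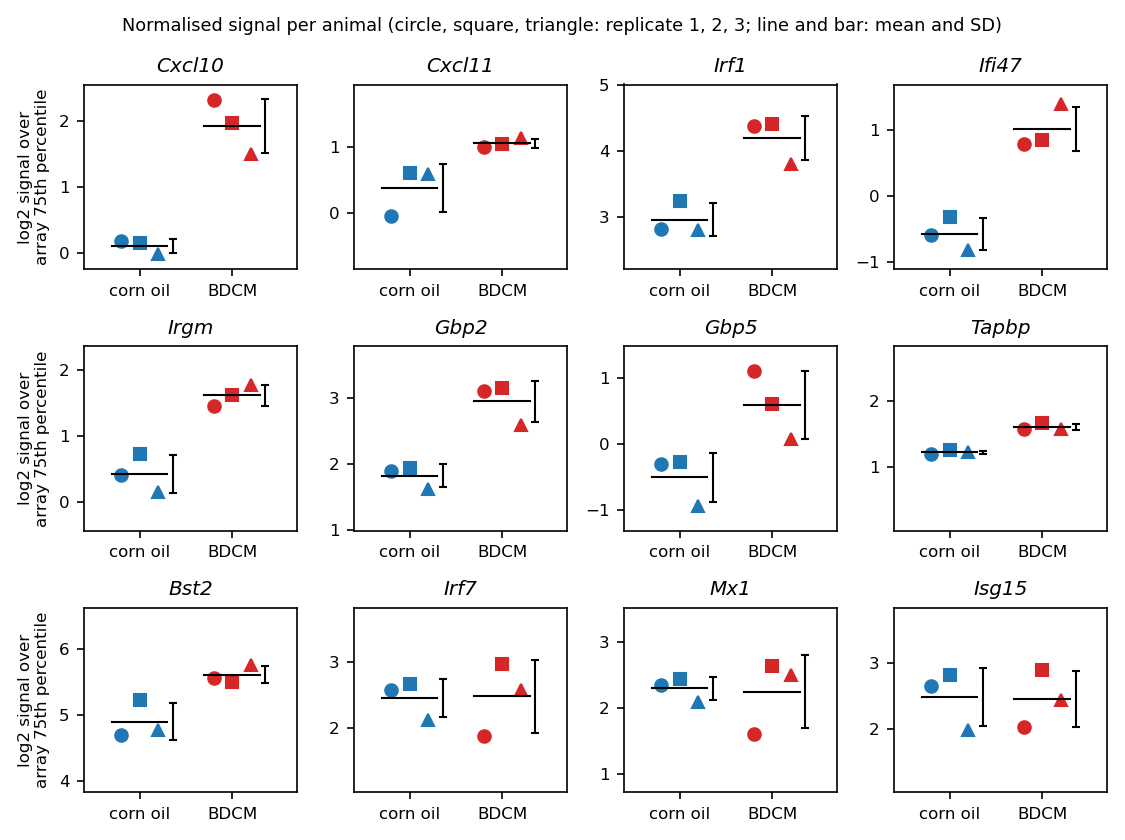
Log2 signal relative to the array's 75th percentile (y axis) in each animal for selected interferon response genes, with corn oil and bromodichloromethane (BDCM) animals as points (circle, square and triangle for replicates 1, 2 and 3), group means as lines and SD as bars. In Cxcl10, Ifi47, Irf1, Irgm and Gbp2 the BDCM animals all lie above the controls, whereas in Irf7, Isg15 and Mx1 BDCM animal 1 lies at or below most of the controls and BDCM animal 2 above them.

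The antigen processing members supply peptides to MHC class I: Psmb8, Psmb9 and Psmb10 are the catalytic subunits of the immunoproteasome, Tap1 and Tap2 form the peptide transporter, and Tapbp (tapasin) bridges transporter and MHC class I. Tapbp passed with a small and even difference. It was at 1.20, 1.25 and 1.22 in corn oil and at 1.58, 1.66 and 1.57 in bromodichloromethane. The spread within each group was far smaller than the gap, and the rise was 1.30-fold (0.38 ± 0.079 SE, adjusted p = 0.037). Tap1 was at 0.15, 0.24 and -0.029 in corn oil and at 0.65, 0.76 and 0.34 in bromodichloromethane, and Psmb10 was at 4.72, 4.63 and 4.48 and at 5.01, 5.01 and 4.83. In these probes neither gene's groups overlapped and neither passed, with differences of 0.46 ± 0.14 (SE, adjusted p = 0.092) for Tap1 and 0.34 ± 0.10 (SE, adjusted p = 0.096) for Psmb10. The second, dimmer Tap1 probe gave 0.30 with overlapping groups (adjusted p over all probes 0.27). Psmb9 (0.070), Tap2 (-0.036) and Psmb8 (-0.22) overlapped between groups. Subunits that work in the same complex thus had values on both sides of 0 in this comparison. A list of MHC class I genes and genes of their assembly, which were not members, had 21 measured. None was higher and Calr, a chaperone of MHC class I assembly, was lower (-0.39 ± 0.080 SE, adjusted p = 0.036), with a median of -0.037 over the list. This 1 of 21 stands beside 3.41% of all features called lower, and the absence of a higher call beside 5.96% called higher.

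The type I antiviral effectors and sensors contributed 1 call among 12 measured genes. Bst2 (tetherin), which holds budding virus at the cell surface, was at 4.70, 5.22 and 4.78 in corn oil and at 5.57, 5.51 and 5.76 in bromodichloromethane. The groups did not overlap, corn oil animal 2 came closest to the dosed range, and the rise was 1.64-fold (0.71 ± 0.16 SE, adjusted p = 0.047). That adjusted p lies close to the threshold, and the second Bst2 probe gave 0.58 (adjusted p over all probes 0.11). Isg20, an RNA exonuclease, was at 0.97, -0.26 and 1.15 in corn oil and at 1.63, 1.55 and 0.93 in bromodichloromethane. Its groups overlapped, and the difference of 0.75 ± 0.40 (SE) did not pass (adjusted p = 0.28). Oasl, a relative of the oligoadenylate synthetases, differed by 0.62 ± 0.29 (SE, adjusted p = 0.23), again with overlap.

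The remaining effectors, Rsad2 (0.11), the translation inhibitors Ifit2 (0.041) and Ifit3 (-0.013), and the oligoadenylate synthetase Oas1a (-0.37), all overlapped between groups. So did the sensors and their partners. Ifih1 (MDA5), a sensor of double-stranded RNA, differed by 0.18 ± 0.19 (SE, adjusted p = 0.59), and Dhx58 (LGP2), its regulator, by -0.064 ± 0.17 (SE, adjusted p = 0.85). The RNA-activated kinase Eif2ak2 (-0.024), the RNA-editing enzyme Adar (-0.010) and the ubiquitin ligase Trim25 (-0.023) also lay close to 0. Eif2ak2's second probe read 0.42 with overlapping groups.

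The modifier genes include Isg15, a ubiquitin-like protein and a much used marker of the type I response, Usp18, which removes it, and the ADP-ribosyltransferases Parp9 and Parp14. Isg15 was at 2.65, 2.82 and 1.99 in corn oil and at 2.03, 2.89 and 2.44 in bromodichloromethane. Both groups covered almost the same range, and the difference was -0.033 with a 95% interval of -0.74 to 0.68. Usp18 differed by -0.33 ± 0.23 (SE, adjusted p = 0.41) and Parp14 by 0.29 ± 0.21 (SE, adjusted p = 0.42), and Parp9 differed by -0.0099. Over all 21 type I targets, the upper end of the 95% interval lay below a 2-fold rise in 18, the other 3 being Isg20, Oasl and Bst2. It did so in 8 of 16 gamma-type targets and in 90.3% of all features, so the type I share was near that background.

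Across the type I targets the dosed animals differed from each other in a shared direction. In dosed animal 1, 15 of the 21 type I targets (71.4%) lay below all 3 controls, where 33.5% of all features did. The same animal lay above all controls in 14 of 16 gamma-type targets (87.5%), where 32.2% of all features did. Dosed animal 2 lay above all controls in 14 of 21 type I and 12 of 16 gamma-type targets, where 33.4% of all features did. The median deviation from the corn oil mean over the type I targets was -0.29, 0.30 and 0.077 in dosed animals 1, 2 and 3. Over the gamma-type targets it was 0.66, 0.54 and 0.29. Animal 1 was thus highest of the dosed animals by the gamma-type median and lowest by the type I median. Animal 3 was the lowest dosed animal in 10 of 16 gamma-type targets, where it was so in 31% of all features. Animal 1 shared slide 1 with the controls while animals 2 and 3 were on slide 2, so for this pattern animal and slide cannot be told apart. On slide 1 alone the medians are those of animal 1, 0.66 over gamma-type and -0.29 over type I targets, beside -0.0093 over all features.

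**Figure D4:**
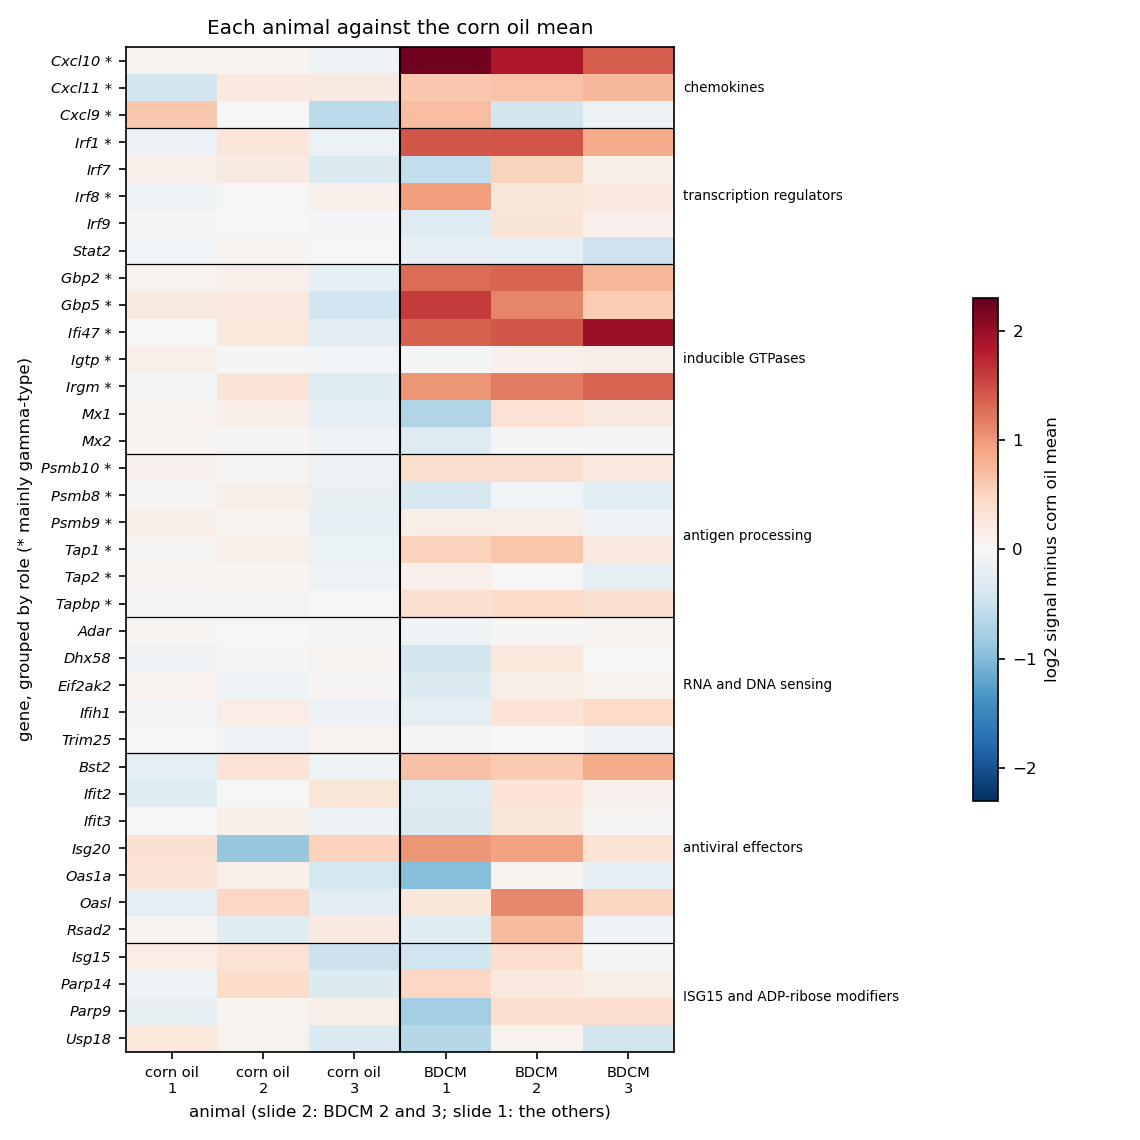
Log2 signal minus the corn oil mean (colour) for the 37 measured interferon response genes (rows, by role, with gamma-type targets starred) in each corn oil and bromodichloromethane (BDCM) animal (columns). BDCM animal 1 is above the controls in 14 of 16 gamma-type targets and below them in 15 of 21 type I targets.

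All 7 genes kept their direction in all 14 alternative settings tried, and with each animal left out in turn. In all 7 every dosed animal lay above every control, so fits that only leave out arrays could not reverse the direction. Settings such as no filter on dim probes left the fitted differences of these genes unchanged, so the direction was fixed there too. Since slide 2 held no control, the fits with slide as a block and on slide 1 alone both rest on dosed animal 1. They gave differences of 2.21 for Cxcl10, 1.42 for Irf1, 1.36 for Ifi47, 1.29 for Gbp2, 1.02 for Irgm, 0.67 for Bst2 and 0.36 for Tapbp. Of these Cxcl10, which was highest in that animal, passed (adjusted p = 0.027 and 0.034), where 1.21% and 0.414% of all features passed in either direction. Leaving out 1 animal left between 0 and 4 members passing. The 0 came without dosed animal 2, when Cxcl10 had an adjusted p of 0.053 and 1.16% of all features passed. Without corn oil animal 1, 2 or 3 the number was 3, 4 or 3, where 4.25%, 1.59% or 3.66% of all features passed in either direction. Without dosed animal 1 or 3 it was 3 or 4, where 4.04% or 2.58% of all features passed. Scaling to the spiked-in control transcripts moved the median of all features to 0.48, the gamma-type median to 0.96 and the type I median to 0.47. This scaling moves the difference of every feature by the same amount. The position of either group's median against that of all features therefore could not change.

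Of 23 listed interferons, receptors and signalling genes, 18 were on the array and 13 were measured, and 1 was higher, Ifngr2, the signalling chain of the interferon gamma receptor (0.49 ± 0.10 SE, adjusted p = 0.040). Ifng itself and Ifnb1 were on the array but did not reach the level needed for testing. A list of upstream sensing genes, which included the cytokine Il18, had 11 measured. Of these, Ikbke, a kinase that activates interferon regulatory factors, was higher (0.98 ± 0.17 SE, adjusted p = 0.024), as was Irf5, at the edge of the threshold (0.46 ± 0.11 SE, adjusted p = 0.0499). These 1 of 13 and 2 of 11 stand beside 5.96% of all features called higher. Of 40 measured other interferon-induced genes, 3 were higher and none was lower, with a median of 0.13. They were Upp1, a uridine phosphorylase (0.92 ± 0.19 SE, adjusted p = 0.039), Ifi27l2b (0.64 ± 0.14 SE, adjusted p = 0.046) and Mov10, an RNA helicase (0.42 ± 0.084 SE, adjusted p = 0.034).

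Marker genes of T cells, of leukocytes in general and of MHC class II presentation included genes that passed as higher. The other immune cell lists included none that passed. Of all features, 5.96% passed as higher and 3.41% as lower. Of 9 T cell markers, 6 were well above background on all arrays, and of these 6 only Cd8b was higher, by 0.86 on the log2 scale (adjusted p = 0.021). Of the 9 differences, 1 lay below 0, at -0.21. Cd3e, Cd2 and Cd5 were not well above background on any corn oil array and were kept only through the dosed group, so their calls are not counted. Cd3e was at least 1.33-fold, Cd2 at least 1.47-fold and Cd5 at least 1.06-fold higher. These bounds set the dosed mean against the lowest signal well above background, or the probe's own signal where that was higher. The summed level of all 9 T cell markers, in units of the array's 75th percentile, was 1.65 to 1.79 in corn oil and 1.96 to 2.41 in bromodichloromethane. This sum includes Cd3e, Cd2 and Cd5, whose selection favoured a higher dosed level, so its separation is not separate support for a rise. Among the dosed animals, animal 2 was the lowest in all 9 T cell markers, Cd3e, Cd2 and Cd5 included, and in 8822 of all 28995 features. How this order relates to that of the gamma-type targets was not tested. General leukocyte markers were higher in 3 of 5 (Itgb2, Coro1a and Cd53), with summed levels of 24.7 to 26.5 and 29.1 to 34.7. Of 6 measured MHC class II genes, which interferon gamma can induce and antigen-presenting cells express, 4 were higher (Cd74, RT1-Bb, RT1-Da and RT1-Db1), with a median of 0.80 over the list. None of 5 measured natural killer and cytotoxic markers, 3 B cell, 9 Kupffer cell and macrophage, 2 dendritic or 3 neutrophil markers passed. Lists this short can lack a call at the share of all features. The 3 neutrophil markers all lay above 0, with a median of 0.43. Their summed level was 1.02 to 1.37 in corn oil and 1.46 to 2.07 in bromodichloromethane. The summed levels of the natural killer, B cell, macrophage and dendritic markers overlapped between groups. The natural killer markers Klrb1 and Ncr1 did not reach the level needed for testing.

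All 7 hepatocyte markers were well above background on all arrays, and their summed level was 3151 to 3465 in corn oil and 2700 to 3075 in bromodichloromethane, with Serpina1 (-0.50) and Cps1 (-0.62) lower. A summed level gives most weight to the brightest probes. Of the 7 differences, 5 lay below 0 and 2 above, up to 0.19, with a median of -0.25. Of 4 endothelial markers, Lyve1 was lower (-0.56). The 2 of 7 hepatocyte and 1 of 4 endothelial markers called lower stand beside 3.41% of all features called lower. The part of these marker differences in the rise of the gamma-type targets was not tested.

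**Figure D5:**
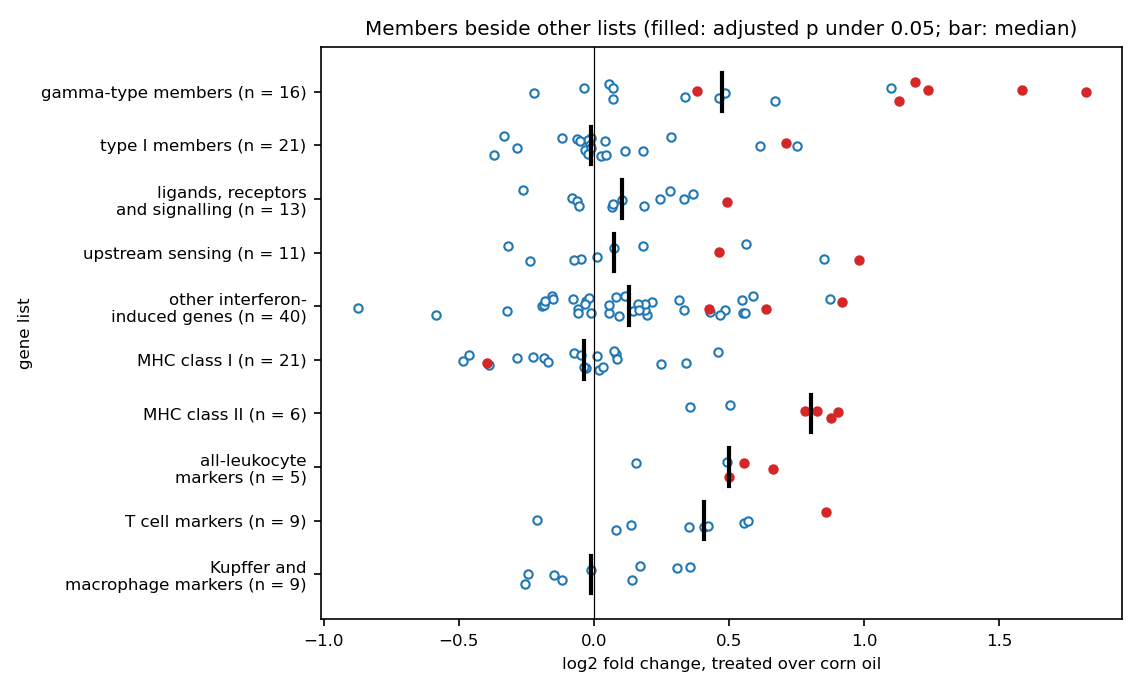
Log2 difference between bromodichloromethane and corn oil livers (x axis) for each measured gene of the lists on the rows. Points are filled where adjusted p is under 0.05, with a bar at the list's median. The rows are the interferon lists, MHC class I and II, and the all-leukocyte, T cell, and Kupffer cell and macrophage markers. The other cell type lists are not drawn. Cd3e, Cd2 and Cd5 are drawn open at their lower bounds, and the medians run from -0.010 for type I targets to 0.47 for gamma-type targets among the members.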

How the data were processed

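Liver RNA of 6 animals was read on 1-colour Agilent arrays (Cy3), per the labels' protocols. Per the submitters' processing notes, the image software was Agilent Feature Extraction 10.7. The deposited scanner files hold linear, background-subtracted intensity values. The deposited value table of the authors holds, judged from its values, the ratio of that intensity to the array's 75th percentile, and was an alternative only. Here log2 intensity minus that percentile was used. Of 61657 non-control probes, 27 outliers were dropped, and 44.5% matched 1 symbol through RefSeq accessions (GRCr8, for names and promoter windows only). A probe was kept when well above background on all arrays of a group, and the brightest probe stood for a gene. Groups were fitted over all 28995 features with limma 3.58.1 (R 4.3.3; lmFit, eBayes, two-sided, Benjamini-Hochberg), tested on simulated data. SE is the moderated standard error. An adjusted p over all probes comes from the same fit on every kept probe. The normexp alternative used the median signal. With 3 arrays a group, their number limits the precision. Members and lists were chosen with earlier results of these data known. Full statistics are given for members that passed and for the 2 with the smallest p in each role, and for each further pathway list for the genes that passed. Other genes and second probes were named after their values were seen.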

Additional observations from a re-analysis of the deposited data

How the results depend on the processing

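All 7 called genes kept their direction under all alternatives tried, several of which could not reverse it, as described above. Across the named genes and settings, 248 outcomes kept direction and call, 50 lost the call, 4 gained it and 9 reversed. Against 2715 features called, the count was 609 with no filter on dim probes, 350 with slide as a block, 120 on slide 1 alone (both rest on 1 dosed animal) and 13249 with spike-in scaling. Against 7 members higher it was 3, 1, 1 and 19 in that order, against 6 gamma-type targets 3, 1, 1 and 14, and against 1 type I target 0, 0, 0 and 5. The type I count was also 0 with the mean over probes, quantile normalization and slide as a random block, under all of which Bst2 lost its call. The gamma-type median of 0.47 became 0.66 with slide as a block or on slide 1 alone and 0.96 with spike-in scaling, and the type I median of -0.010 became -0.29, -0.29 and 0.47. The median over all members, 0.069, became 0.55 with spike-in scaling. The share of calls that were higher, 63.6%, became 74.2% with median centring and 97.6% with spike-in scaling. Leaving out each animal gave 335 to 1232 features called, 0 to 4 members higher, 0 to 4 gamma-type and 0 to 1 type I, and medians of 0.41 to 0.60 (gamma-type), -0.15 to 0.19 (type I) and 0.036 to 0.25 (all members). Dhx58 turned to 0.043 with the mean over probes, to 0.098 and 0.095 on its other probes, each taken on its own as an alternative chosen after seeing the data, to 0.42 with spike-in scaling and to 0.11 without dosed animal 1. Ifih1 turned to -0.22 on slide 1 alone and with slide as a block, and Stat2 and Usp18 to 0.20 and 0.15 with spike-in scaling. Where no construction of the alternative (fewer arrays, more probes tested) shows it, the cause was not tested.

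The animals' replicate numbers were the same in both groups, but deviations of same-numbered animals correlated at 0.092, 0.019 and 0.117, so the numbers were not taken as pairs, although each animal correlated best with its own number. With the replicate block, 353 features, 2 members (Cxcl10 and Gbp2), 2 gamma-type and 0 type I targets passed as called, and the fitted differences did not move.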
